A study of Mus musculus with 6 samples.

Results

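Matrix metalloproteinases (Mmp), the ADAMTS proteases and their tissue inhibitors (Timp) were followed in mouse RNA samples labelled as latrophilin-2 knockout or wild type. All gene symbols that begin with Mmp, Adamts or Timp and a number were taken, which gave 46 of the 24421 symbols in the tables: 23 Mmp, 19 Adamts and 4 Timp genes. By their labels, the samples were 3 homozygous knockouts of Lphn2 and 3 wild type (WT) samples. Lphn2 is now called Adgrl2 and encodes an adhesion G protein-coupled receptor. Both groups were taken at embryonic day 9.5 on a C57BL/6N background and are labelled as whole embryo. The labels give neither the deleted part of Lphn2 nor whether a sample was 1 embryo or a pool. Where nothing says that samples came from separate litters, the p-values below measure only the spread between these samples.

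Metalloproteinases of the Mmp family are zinc-dependent enzymes that cut collagens and other proteins of the extracellular matrix. Most are made as inactive precursors and are secreted, while the membrane-type members stay on the cell surface. ADAMTS enzymes are secreted relatives with thrombospondin repeats, some of which trim procollagens and others of which cut large proteoglycans such as versican and aggrecan. TIMPs occupy the active site of Mmp enzymes, and Timp3 also blocks some ADAMTS enzymes. In the mouse implantation site, invading trophoblast is known for gelatinase B (Mmp9) and the maternal decidua around it for Timp3.

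Total counts lay between 14476809 and 23887717 in knockout and between 18352150 and 36213611 in WT libraries. Levels are CPM of 3' end tags, that is tag counts divided by the TMM-scaled library size on the usual CPM scale, with no division by transcript length. Each mean ± SD is over 3 libraries, the SE is that of a log2 fold change, and an adjusted p with no tool named is from the edgeR quasi-likelihood test with Benjamini-Hochberg adjustment. Adgrl2 itself was read at 5.49, 1.67 and 2.78 CPM in knockout replicates 1, 2 and 3, against 10.9, 7.56 and 15.96 CPM in WT replicates 1, 2 and 3 (edgeR adjusted p = 0.194). Tags from the 3' end can lie outside a deletion, so this does not check the genotype. The label of whole embryo was set against markers. All 6 libraries held many tags of maternal decidual markers, so the label does not cover all of the RNA. Markers of embryonic heart muscle summed to 7.80 to 22.2 CPM in knockout and 40.8 to 360.7 CPM in WT libraries, with Nkx2-5 at 0 in every knockout library and in WT replicate 2. Markers of the maternal decidua summed to 8499 to 13840 CPM in knockout and 22820 to 39500 CPM in WT libraries. Prl8a2 made most of the WT sums, and without it, a choice made after seeing the data, the decidual sums overlapped at 5599 to 8503 CPM in knockout and 6173 to 10760 CPM in WT libraries. Of 13 decidual genes tested, 8 had a positive log2 fold change (median 0.89), against 46.6% of all genes tested (median -0.04). Sample descriptions carry a code that differs for WT replicate 1 and whose meaning is not stated, so values without that library are given for members that the text dwells on and for those it moved most. In bulk RNA, fewer cells of a type and less RNA per cell cannot be told apart.

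The families were unevenly expressed. A mean of at least 1 CPM over the 6 libraries was reached by 26 members, namely 10 Mmp, 13 Adamts and 3 Timp genes, and 25 of these passed the filter on low counts and were tested. The 20 members below that level stood at no more than 2.97 CPM in any library. Mmp20, which encodes the enamel protease, and Mmp21 had 0 counts in all 6 libraries, which allows up to 0.214 CPM in the shallowest library and 0.0784 CPM in the deepest (3 counts, counting error only). None of the 25 tested members passed the threshold of adjusted p under 0.05 (edgeR quasi-likelihood test, 0 higher and 0 lower), where 0.0505% of the 13848 genes tested did. With 1 symbol kept per set of symbols with identical counts, 0 of 13797 genes passed. Limma-voom also called 0 members, and DESeq2 called 3 members higher and 1 lower, against 3.49% and 2.87% of all genes (6.37% in either direction). At an unadjusted p under 0.05 edgeR had 4 members higher, against 8.68% of all genes, and 3 lower, against 6.86%. Together these were 28% of the 25 members and 15.5% of all genes. Without knockout replicate 1, edgeR called 2 members higher and 2 lower, against 1.77% and 3.27% of all genes (5.04% in either direction). All 3 knockout values lay above all 3 WT values in 5 members, 20% against 12.1% of all genes, and below them in 2 members, 8% against 9.39%. The median log2 fold change of knockout over WT was -0.07 over the members and -0.04 over all genes. Each of these shares of the members rests on 1 to 7 genes.

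**Figure D1:**
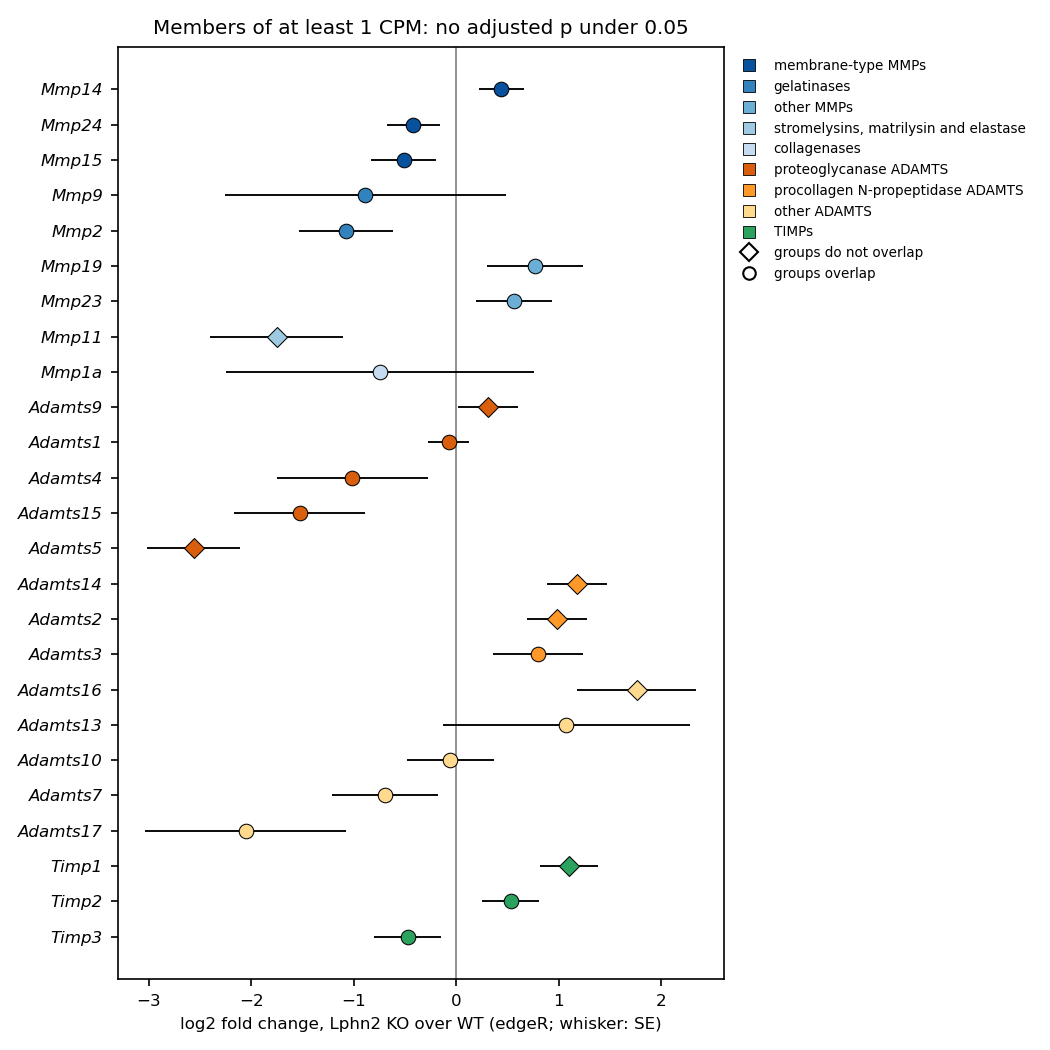
Log2 fold change of Lphn2 knockout over WT for the 25 tested members of at least 1 CPM, ordered by class, with standard errors as whiskers. Diamonds mark the 7 members whose groups do not overlap; no member had an adjusted p under 0.05.

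Many members at or near 0 lie together in the genome. A run of 10 Mmp genes (Mmp13, Mmp12, Mmp1b, Mmp3, Mmp1a, Mmp10, Mmp8, Mmp27, Mmp20 and Mmp7) lies between positions 7272514 and 7699585 of mm10 chromosome 9. It holds collagenases and stromelysins, and Mmp1a alone among them averaged 1 CPM or more. The other cluster genes never exceeded 2.32 CPM. RefSeq promoter windows on GRCm38.p6, from 250 bases before to 50 bases after the start site, were at hand for 32 of the 46 members. Of the 10 cluster genes, 7 had both an AP-1 motif (TGAGTCA or its complement TGACTCA) and a TATA box (TATAAA on the gene's strand) in a window, as 0.624% of all 32851 windows had. The 22 members outside the cluster that had a window at hand held 0 AP-1 motifs, which 5.2% of all windows held. A GC box (GGGCGG on either strand) was in 18 of these 22, against 0 of the 10 cluster genes and 35.7% of all windows. Members without a window, Adamts5, Mmp2 and Mmp9 among them, were not searched for motifs. A match is a description of letters and shows no binding.

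The 120 bases before the start site are shown for Mmp1a, its neighbour Mmp1b and the collagenase gene Mmp13 as the cluster's kind, and for Adamts2, Adamts14 and Timp1 as members with higher knockout values. Capitals mark AP-1 motifs, TATA boxes and GC boxes; GC boxes of Adamts14 adjoin or overlap each other. Mmp1a (chr9:7464021-7464140, plus strand), Mmp1b (chr9:7388027-7388146, minus strand), Mmp13 (chr9:7272394-7272513, plus strand), Adamts2 (chr11:50601965-50602084, plus strand), Adamts14 (chr10:61273420-61273539, minus strand) and Timp1 (chrX:20870046-20870165, plus strand) read as follows.
Mmp1a: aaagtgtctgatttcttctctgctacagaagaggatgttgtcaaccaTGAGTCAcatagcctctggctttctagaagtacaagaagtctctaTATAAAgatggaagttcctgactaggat
Mmp1b: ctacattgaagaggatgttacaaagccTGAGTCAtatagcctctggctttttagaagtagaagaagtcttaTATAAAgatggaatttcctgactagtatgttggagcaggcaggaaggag
Mmp13: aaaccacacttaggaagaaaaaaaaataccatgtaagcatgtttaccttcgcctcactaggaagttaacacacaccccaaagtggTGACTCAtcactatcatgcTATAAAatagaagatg
Adamts2: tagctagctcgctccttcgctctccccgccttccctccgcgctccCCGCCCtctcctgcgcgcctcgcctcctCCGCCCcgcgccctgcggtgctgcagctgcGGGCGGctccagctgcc
Adamts14: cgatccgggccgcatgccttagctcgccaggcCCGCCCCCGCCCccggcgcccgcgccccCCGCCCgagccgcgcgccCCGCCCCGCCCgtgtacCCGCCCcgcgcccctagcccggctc
Timp1: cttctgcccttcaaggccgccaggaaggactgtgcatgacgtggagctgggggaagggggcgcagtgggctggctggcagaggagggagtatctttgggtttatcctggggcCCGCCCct

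Among the 5 ADAMTS that cut proteoglycans and reached a mean of 1 CPM, Adamts5 had the lowest knockout level relative to WT. Adamts5 (ENSMUSG00000022894.6, mm10 chromosome 16, 85856173 to 85901828, minus strand) encodes aggrecanase-2, which cuts aggrecan and versican. It was read at 32.8, 23.1 and 74.3 CPM in knockout replicates 1, 2 and 3, against 247, 318 and 202 CPM in WT replicates 1, 2 and 3. The groups did not overlap, with the highest knockout library below the lowest WT library. Means were 43.4 ± 27.2 CPM in knockout and 256 ± 58.9 CPM in WT libraries, a log2 fold change of -2.56 ± 0.45 (SE). This was 5.90-fold lower in the knockout, with an unadjusted p of 0.000691 and an adjusted p of 0.165 in edgeR. DESeq2 called it lower (adjusted p = 2.2e-07), and the adjusted p ranged from 2.2e-07 to 0.793 over the alternatives. Its log2 fold change stayed between -3.18 and -2.25 in all of them, knockout replicate 1 alone against WT included, and was -2.59 without WT replicate 1.

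Adamts1 (ENSMUSG00000022893.14, chromosome 16, 85793827 to 85803113, minus strand), another versican-cutting enzyme, ends 53060 bases from Adamts5 on the same strand. Adamts1 stood at 98.7, 107 and 115 CPM in knockout libraries, against 125, 127 and 84.9 CPM in WT libraries. These ranges overlapped, and the log2 fold change was -0.07 ± 0.20 (edgeR adjusted p = 0.882). It turned positive without WT replicate 1 or 2, at 0.0073 and 0.035. The neighbours thus had unlike values in the same libraries, and the difference between them was not tested. Adamts9, needed in the mouse for cardiovascular development, had 5.14, 5.40 and 5.56 CPM in knockout and 4.53, 3.53 and 4.86 CPM in WT libraries. Its groups did not overlap, but the log2 fold change of 0.31 ± 0.29 had an adjusted p of 0.637. Exons of Adamts9 overlap those of genes on the other strand, and whether the counting used strand is not given in the sources used here.

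Adamts15 and Adamts4 completed the expressed proteoglycan-cutting members. Adamts15 was read at 4.12, 3.33 and 2.57 CPM in knockout libraries, against 7.43, 2.86 and 18.6 CPM in WT libraries (log2 fold change -1.53 ± 0.64, unadjusted p = 0.0481, adjusted p = 0.318). WT replicate 3 was the highest, and without it the log2 fold change was -0.62. Adamts4, aggrecanase-1, averaged 1.85 ± 1.83 CPM in knockout and 3.82 ± 1.64 CPM in WT libraries (adjusted p = 0.547). Summed over the 7 genes of this class, the level was 145, 139 and 198 CPM in knockout replicates 1 to 3, against 387, 458 and 315 CPM in WT replicates 1 to 3. Without Adamts5 the sums overlapped, at 112, 116 and 124 CPM in knockout and 140.1, 139 and 114 CPM in WT libraries. Versican (Vcan), a substrate of this class, stood at 152, 166 and 160 CPM in knockout and 217, 68.9 and 353 CPM in WT libraries, with groups that overlapped (adjusted p = 0.719).

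Some decidual markers had a like pattern over the libraries. Prl8a2, decidual prolactin-related protein, stood at 2900, 1279 and 5335 CPM in knockout replicates 1 to 3, against 14989, 28746 and 17981 CPM in WT replicates 1 to 3. Erv3, another decidual marker, had 193, 140 and 513 CPM in knockout and 1964, 3466 and 2006 CPM in WT libraries. As with Adamts5, knockout replicate 2 was the lowest and replicate 3 the highest of the knockout libraries, and WT replicate 2 was the highest of all 6. Other decidual genes ran the other way, such as Hoxa10, a regulator of decidualization, at 668, 1013 and 957 CPM in knockout and 470, 521 and 287 CPM in WT libraries. Of the 13 decidual genes tested, 0 passed the threshold and none was at 0 in all knockout libraries. The part of the decidua in the value of Adamts5 was not tested.

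**Figure D2:**
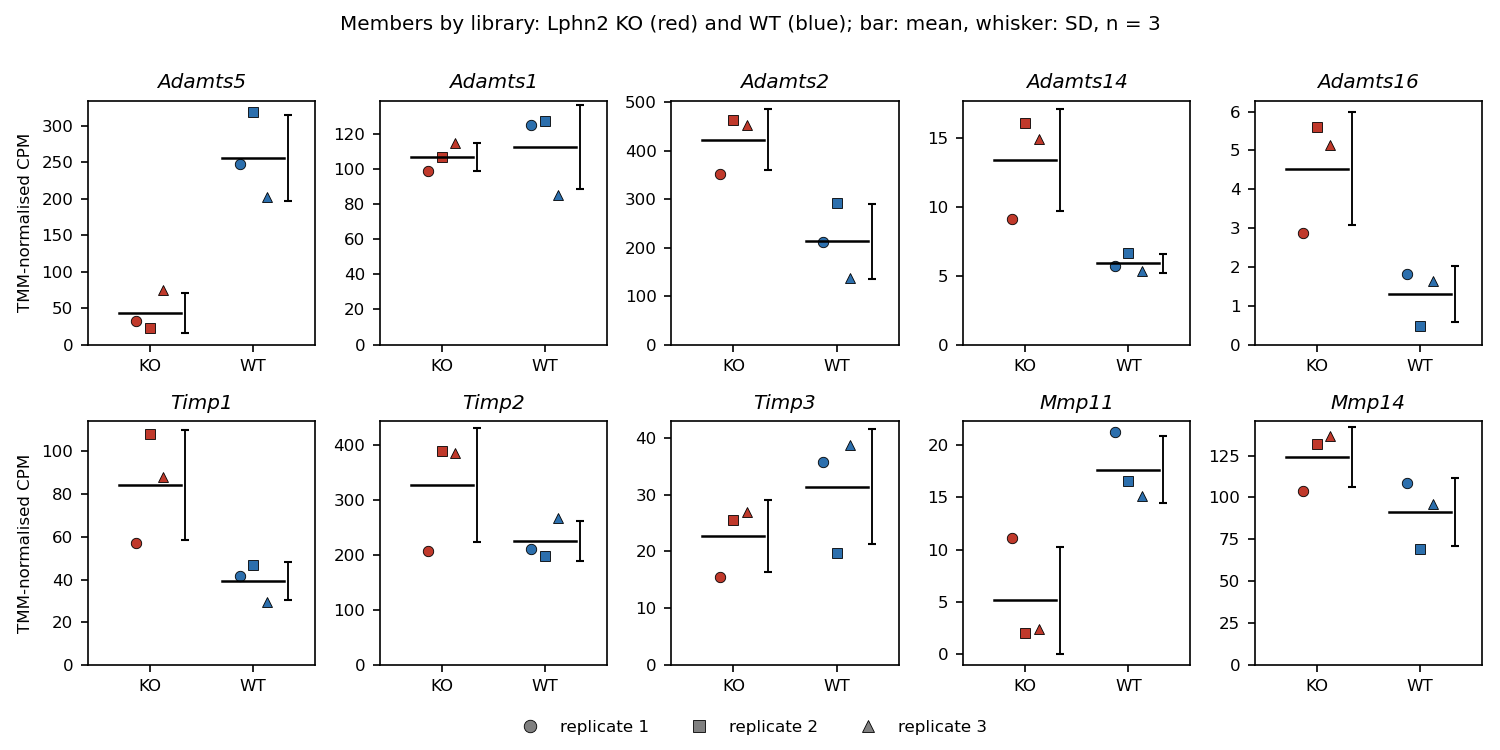
TMM-normalised CPM of 10 members in each library, with Lphn2 knockout (KO, red) left of WT (blue), a bar for the mean and a whisker for the SD of 3 libraries. Adamts5 and Mmp11 lie lower and Adamts2, Adamts14, Adamts16 and Timp1 higher in all 3 KO libraries than in all 3 WT libraries, while Adamts1, Timp2, Timp3 and Mmp14 overlap.

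Of the 3 procollagen N-propeptidases, Adamts2 and Adamts14 had higher values in all knockout libraries than in all WT libraries, and Adamts3 overlapped. These enzymes remove the amino-terminal propeptide of fibrillar procollagens so that collagen can assemble. Adamts2 (ENSMUSG00000036545.8, mm10 chromosome 11, 50602084 to 50807573, plus strand) was read at 352, 464 and 454 CPM in knockout replicates 1, 2 and 3, against 212, 292 and 137 CPM in WT replicates 1, 2 and 3. All knockout libraries lay above all WT libraries, with means of 423 ± 62.05 CPM in knockout and 214 ± 77.5 CPM in WT. The log2 fold change was 0.99 ± 0.29 (unadjusted p = 0.0112, adjusted p = 0.205 in edgeR; 0.0289 in DESeq2; 0.0289 to 1 over the alternatives). Adamts14 (ENSMUSG00000059901.12, chromosome 10, 61197112 to 61273438, minus strand), a close relative, was read at 9.14, 16.1 and 14.9 CPM in knockout libraries, against 5.72, 6.64 and 5.33 CPM in WT libraries. Its groups were also apart, at a log2 fold change of 1.18 ± 0.29 (unadjusted p = 0.00480, adjusted p = 0.176). DESeq2 called Adamts14 higher (adjusted p = 0.0228), as did edgeR when knockout replicate 1 was left out (0.0401), in a range of 0.0228 to 1 over the alternatives. Without WT replicate 1, the log2 fold changes of Adamts2 and Adamts14 were 0.97 and 1.16.

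Adamts3, which in the mouse is best known for activating the lymphatic growth factor VEGF-C, had no such separation. It was read at 4.94, 15.1 and 15.0 CPM in knockout and 5.80, 6.70 and 7.53 CPM in WT libraries. Knockout replicate 1 was the lowest of the 6 and replicates 2 and 3 the highest (log2 fold change 0.80 ± 0.44, adjusted p = 0.421). With knockout replicate 1 alone against WT the value was -0.41. Summed over the 3 genes, the class stood at 366, 495 and 484 CPM in knockout and 223, 305 and 150 CPM in WT libraries, and at 14.1, 31.1 and 29.9 CPM in knockout and 11.5, 13.3 and 12.9 CPM in WT libraries without Adamts2. Total ADAMTS levels were alike, at 633 ± 91.2 CPM in knockout and 641 ± 135 CPM in WT libraries, with Adamts5 lower and Adamts2 higher in the knockout. Each of these genes made most of its class's difference between the group sums.

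The remaining ADAMTS genes were low. Adamts16 was read at 2.86, 5.60 and 5.13 CPM in knockout and 1.81, 0.488 and 1.65 CPM in WT libraries, with groups that did not overlap (log2 fold change 1.76 ± 0.58, unadjusted p = 0.0184, adjusted p = 0.237). Its counts were few, at 73, 84 and 72 in knockout and 50, 8 and 63 in WT libraries. Adamts7, which cuts cartilage oligomeric matrix protein, averaged 7.27 ± 3.45 CPM in knockout and 11.8 ± 7.41 CPM in WT libraries, with a log2 fold change of -0.70 that was -0.042 without WT replicate 3. Adamts10, a partner of fibrillin microfibrils, averaged 8.69 ± 2.28 CPM in knockout and 8.998 ± 4.42 CPM in WT libraries. Adamts17, also tied to fibrillin, averaged 0.804 ± 0.0633 CPM in knockout and 3.33 ± 3.87 CPM in WT libraries (log2 fold change -2.05, and -0.52 without WT replicate 3). Adamts13, which cuts von Willebrand factor, averaged 3.03 ± 3.43 CPM in knockout and 1.45 ± 1.36 CPM in WT libraries, and its log2 fold change of 1.07 was 0.50 without WT replicate 1, 1.96 without WT replicate 2 and -0.43 without knockout replicate 3. None of these 4 passed the threshold (adjusted p of 0.370 to 0.961). Adamts6, Adamts8, Adamts12, Adamts18, Adamts19 and Adamts20 stayed below a mean of 1 CPM.

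Among the membrane-type metalloproteinases, Mmp14 (ENSMUSG00000000957.11, mm10 chromosome 14, 54431612 to 54445364, plus strand), which activates the precursor of Mmp2 at the cell surface, had the most tags. It was read at 104, 132 and 137 CPM in knockout and 109, 69.2 and 96.2 CPM in WT libraries. Knockout replicate 1 fell within the WT range, and the log2 fold change of 0.44 ± 0.22 did not pass (unadjusted p = 0.0821, adjusted p = 0.379). Mmp24, known from the nervous system, averaged 14.2 ± 2.53 CPM in knockout and 18.98 ± 4.57 CPM in WT libraries, and Mmp15 averaged 4.71 ± 0.382 CPM in knockout and 6.72 ± 1.94 CPM in WT libraries (adjusted p = 0.477 and 0.481). Exons of Mmp24 overlap a gene on the other strand. Mmp16 was read at 0.0392, 0.20 and 0.0713 CPM in knockout and 0.725, 0.122 and 6.87 CPM in WT libraries, so that WT replicate 3 held most of its counts, and the filter on low counts removed it from the test. Mmp17 and Mmp25 averaged below 1 CPM.

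The gelatinases, which digest denatured collagen and the type IV collagen of basement membranes, had unlike patterns. Mmp2, gelatinase A, was read at 2.67, 5.80 and 8.48 CPM in knockout and 12.6, 8.04 and 14.8 CPM in WT libraries. Knockout replicate 3 lay just above WT replicate 2, so the groups overlapped (log2 fold change -1.08 ± 0.46, unadjusted p = 0.0504, adjusted p = 0.322). Mmp9 (ENSMUSG00000017737.2, mm10 chromosome 2, 164940780 to 164955850, plus strand), gelatinase B, was read at 40.0, 0.267 and 1.14 CPM in knockout replicates 1, 2 and 3, against 25.7, 33.1 and 18.7 CPM in WT replicates 1, 2 and 3. Knockout replicate 1 was the highest of the 6 libraries, while replicate 2 held 4 counts. Over all libraries the log2 fold change was -0.89 ± 1.37 (adjusted p = 0.778). Without knockout replicate 1 it was -5.20 (adjusted p = 0.0190, the lowest over the alternatives, with 1 as the highest), and with that library alone against WT it was 0.65.

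Mmp1a, an interstitial collagenase, had the same split between knockout libraries as Mmp9. Mmp1a stood at 11.2, 0.400 and 0 CPM in knockout replicates 1, 2 and 3, against 7.14, 11.1 and 1.59 CPM in WT replicates 1, 2 and 3. The log2 fold change was -0.74 ± 1.501 (adjusted p = 0.835), -4.99 without knockout replicate 1 and 0.78 with that library alone. Mmp1b, its neighbour, was read at 1.22, 0 and 0 CPM in knockout and 0.652, 2.32 and 0.653 CPM in WT libraries, below a mean of 1 CPM. The longest annotated transcripts of Mmp1a and Mmp1b, of 2022 and 1449 bases, had the same base in 1315 of 2025 aligned columns (64.9%). Gaps count in that share, so it understates the likeness of the stretches that both transcripts hold. Their last 300 bases, where 3' end tags lie, matched in 47.9% of columns, but these ends may not be matching stretches. How reads that fit both were counted is not given in the sources used here. Trophoblast markers, summed over 19 genes, stood at 5225, 82.5 and 203 CPM in knockout replicates 1 to 3, against 6918, 7906 and 1897 CPM in WT replicates 1 to 3. Knockout replicates 2 and 3 were thus low in Mmp9, Mmp1a and these markers alike. Yolk sac endoderm markers, with sums of 212, 25.5 and 38.4 CPM in knockout replicates 1 to 3, and Mmp11 were likewise lower in replicates 2 and 3. Psg21 was at 0 in all knockout libraries and Psg18 at 0 in all 6. Of the 14 trophoblast markers tested, 0 passed the threshold over all genes. Their part in the values of Mmp9 and Mmp1a was not tested.

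Mmp11 (ENSMUSG00000000901.17, mm10 chromosome 10, 75923222 to 75936496, minus strand) encodes stromelysin-3, which furin activates inside the cell. Its levels were 11.1, 2.00 and 2.42 CPM in knockout replicates 1, 2 and 3, against 21.2, 16.6 and 15.1 CPM in WT replicates 1, 2 and 3. All knockout libraries lay below all WT libraries, with replicate 1 nearest to them. The log2 fold change was -1.75 ± 0.65 (unadjusted p = 0.0298, adjusted p = 0.270), and without knockout replicate 1 it was -2.99 and passed the threshold (adjusted p = 0.0149, in a range of 0.0149 to 1 over the alternatives). Without WT replicate 1 it was -1.58. With knockout replicate 1 alone against WT it was -0.65. Exons of Mmp11 overlap those of Chchd10 on the other strand. Mmp19, which acts on basement membrane, was read at 18.7, 25.6 and 26.4 CPM in knockout and 22.2, 5.36 and 13.7 CPM in WT libraries, with groups that overlapped (log2 fold change 0.77 ± 0.47, adjusted p = 0.472). This value was 1.30 without WT replicate 1 and 0.40 without WT replicate 2. Exons of Mmp19 overlap those of Tmem198b on the other strand. Mmp23, whose protein is anchored in the membrane by its amino-terminal part, averaged 17.7 ± 5.47 CPM in knockout and 11.9 ± 4.79 CPM in WT libraries (adjusted p = 0.506), and its log2 fold change of 0.56 was 0.93 without WT replicate 1 and 0.33 without WT replicate 3.

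**Figure D3:**
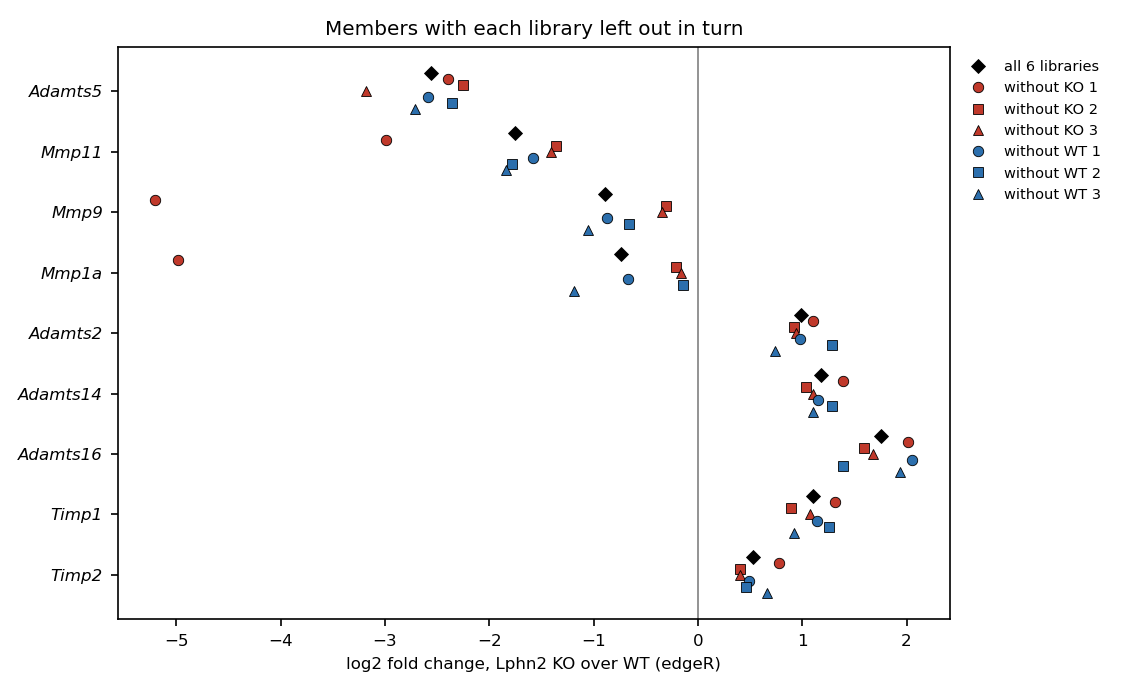
edgeR log2 fold change of Lphn2 knockout over WT for 9 members with all 6 libraries (black diamonds) and with each library left out (red, a KO library; blue, a WT library). Mmp9 and Mmp1a shift to -5.20 and -4.99 without KO replicate 1, whereas Adamts5 stays between -3.18 and -2.25.

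The inhibitors differed among themselves in direction. Timp1 (ENSMUSG00000001131.11, mm10 chromosome X, 20870166 to 20874735, plus strand), a soluble inhibitor that also binds the precursor of Mmp9, was read at 57.1, 108 and 87.9 CPM in knockout replicates 1, 2 and 3, against 41.5, 46.8 and 29.6 CPM in WT replicates 1, 2 and 3. All knockout libraries lay above all WT libraries, with means of 84.4 ± 25.8 CPM in knockout and 39.3 ± 8.79 CPM in WT. The log2 fold change of 1.10 ± 0.29 had an unadjusted p of 0.00584 and an adjusted p of 0.178. DESeq2 called it higher (adjusted p = 0.0144), and edgeR did so when knockout replicate 1 was left out (0.0407), in a range of 0.0144 to 1 over the alternatives. Without WT replicate 1 its log2 fold change was 1.14. Its 6 counts were all multiples of 3, so its counting error is larger than the counts show.

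Timp2 (ENSMUSG00000017466.9, chromosome 11, 118301069 to 118355740, minus strand), which takes part in the activation of Mmp2 by Mmp14, was read at 207, 390 and 386 CPM in knockout and 212, 199 and 268 CPM in WT libraries. Knockout replicate 1 lay among the WT libraries, and the log2 fold change was 0.53 ± 0.28 (adjusted p = 0.401), or -0.10 with that library alone against WT. Timp3 (ENSMUSG00000020044.13, chromosome 10, 86300372 to 86349506, plus strand) encodes the inhibitor that is held in the matrix and also blocks aggrecanases. Timp3 stood at 15.5, 25.6 and 27.0 CPM in knockout and 35.7, 19.8 and 38.8 CPM in WT libraries, which overlapped (log2 fold change -0.47 ± 0.33, adjusted p = 0.523). Exons of Timp3 overlap those of Syn3 on the other strand. Timp4 had 0 counts in the knockout libraries and 2, 0 and 6 counts in WT replicates 1, 2 and 3.

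Proteases were then set against inhibitors by summing CPM over all members of each kind in a library. Proteases summed to 756, 860 and 930 CPM in knockout replicates 1, 2 and 3, against 875, 966 and 714 CPM in WT replicates 1, 2 and 3. TIMPs summed to 279.9, 523 and 501 CPM in knockout and 289, 266 and 337 CPM in WT libraries. Protease sums overlapped and had nearly equal means, at 849 ± 87.8 CPM in knockout and 852 ± 128 CPM in WT libraries. TIMP tags per protease tag came to 0.370, 0.609 and 0.539 in knockout and 0.330, 0.275 and 0.471 in WT libraries. Knockout replicate 1 fell between WT replicates 1 and 3, so the ratio of 0.506 ± 0.123 in knockout overlapped that of 0.359 ± 0.101 in WT. Without Adamts2, Timp2 and Mmp14, the member with the most tags in each family, the ratio was 0.242, 0.507 and 0.338 in knockout and 0.139, 0.110 and 0.143 in WT libraries. The groups then did not overlap. Protease sums without these 3 genes lay apart as well. They were 300, 264 and 340 CPM in knockout and 555, 605 and 481 CPM in WT libraries, while TIMP sums still overlapped. Of the proteases left out, Adamts2 stood at 352, 464 and 454 CPM in knockout and 212, 292 and 137 CPM in WT libraries. Mmp14 stood at 104, 132 and 137 CPM in knockout and 109, 69.2 and 96.2 CPM in WT libraries. Adamts5, with lower knockout values, stayed in the sums. The 3 genes were left out together and not singly, and the part of each in the ratio was not tested. Over all members, TIMP tags per Mmp tag were 1.26, 2.55 and 2.30 in knockout and 1.19, 1.43 and 1.66 in WT libraries. These values overlapped. A ratio of tags is not a ratio of active enzyme to inhibitor.

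**Figure D4:**
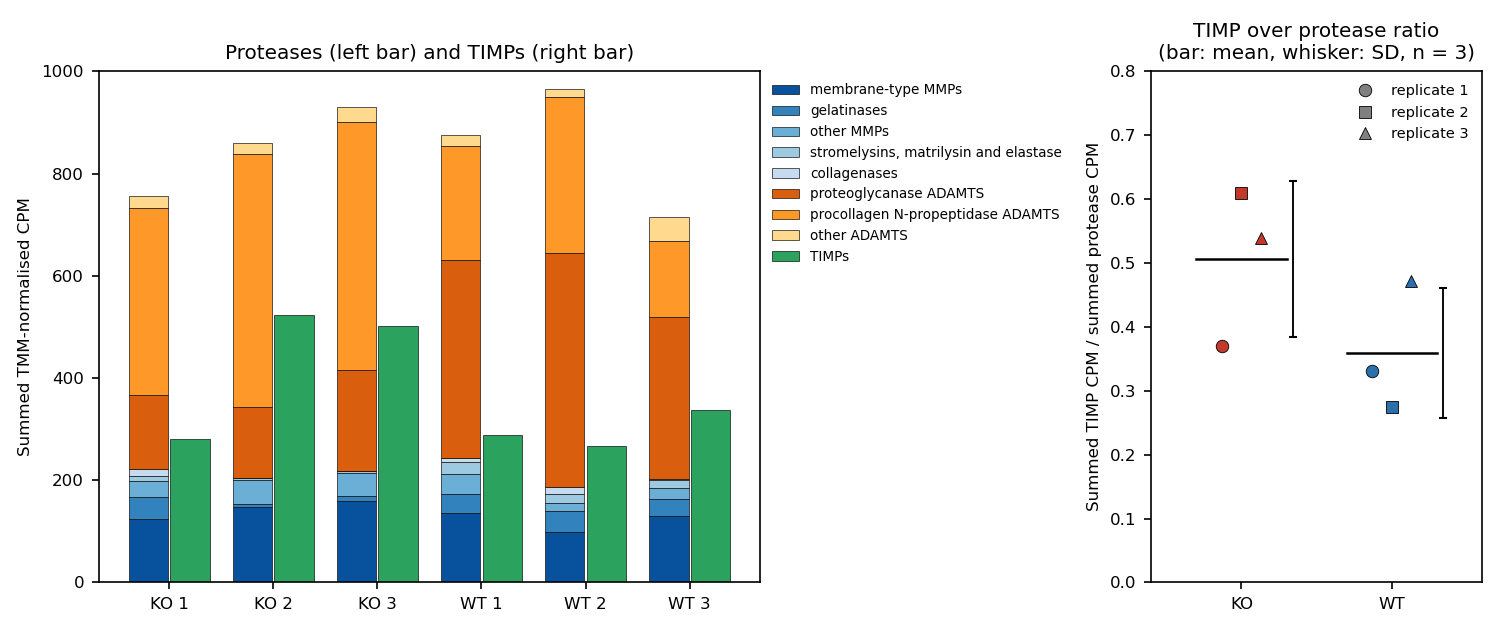
Left, summed TMM-normalised CPM of proteases by class (stacked bar) and of TIMPs (green bar) in each library, Lphn2 knockout (KO) left of WT. Right, the ratio of both sums with mean and SD of 3 libraries; KO values lie at 0.370 to 0.609 and WT values at 0.275 to 0.471.

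Values of several members and of tissue markers were high or low in the same libraries. WT replicate 3 was the highest of the 6 libraries for 8 of the 26 members of at least 1 CPM, which were Adamts7, Adamts10, Adamts15, Adamts17, Mmp2, Mmp15, Mmp16 and Timp3. The share of all genes that were highest in WT replicate 3 was not counted, so this is not shown to be a trait of the members. Embryonic heart muscle markers, 10 in all, summed to 360.7 CPM in WT replicate 3 and to 89.2 and 40.8 CPM in WT replicates 1 and 2. Embryonic neural tube markers summed to 11.7, 8.60 and 8.84 CPM in knockout and 59.5, 21.1 and 160 CPM in WT libraries, and somite and mesenchyme markers to 26.2, 15.1 and 13.6 CPM in knockout and 44.96, 17.7 and 93.0 CPM in WT libraries. Of the 5 tested genes on each of these 3 lists, 0 passed the threshold, and Pax1 was at 0 in all knockout libraries. Uterine natural killer markers, where 12 of 12 were tested and 0 passed, summed to 2905, 5315 and 4205 CPM in knockout and 1172, 2149 and 915 CPM in WT libraries. Endothelial markers summed to 1718, 2534 and 2177 CPM in knockout and 1269, 1961 and 1158 CPM in WT libraries, with 0 of 10 passing. Adamts2, Adamts14 and Timp1 had their lowest knockout value in replicate 1 and their highest in replicate 2, as both of these lists did. The decidual genes Hoxa10, Bmp2 and Cebpb had this order too, while others such as Wnt4, Pgr and Prl8a2 did not. Markers of yolk sac endoderm summed to 212, 25.5 and 38.4 CPM in knockout and 458, 605 and 716 CPM in WT libraries, and those of primitive red cells to 1450, 1311 and 825 CPM in knockout and 3722, 3733 and 6477 CPM in WT libraries. Macrophage markers overlapped, at 278 to 317 CPM in knockout and 249.9 to 582 CPM in WT libraries, with Csf1r holding most of the WT values. Neutrophil markers summed to 2149 to 3847 CPM in knockout and 831 to 1437 CPM in WT libraries, nearly all of it S100a8. Without S100a8 they summed to 9.41, 7.27 and 3.85 CPM in knockout and 17.97, 18.9 and 33.2 CPM in WT libraries. Of the 6 tested neutrophil genes, 5 had a negative log2 fold change, against 53.4% of all genes tested. Camp and Elane were at 0 in the knockout. No gene of these 4 lists passed the threshold. The part of these cells in the members' values was not tested.

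**Figure D5:**
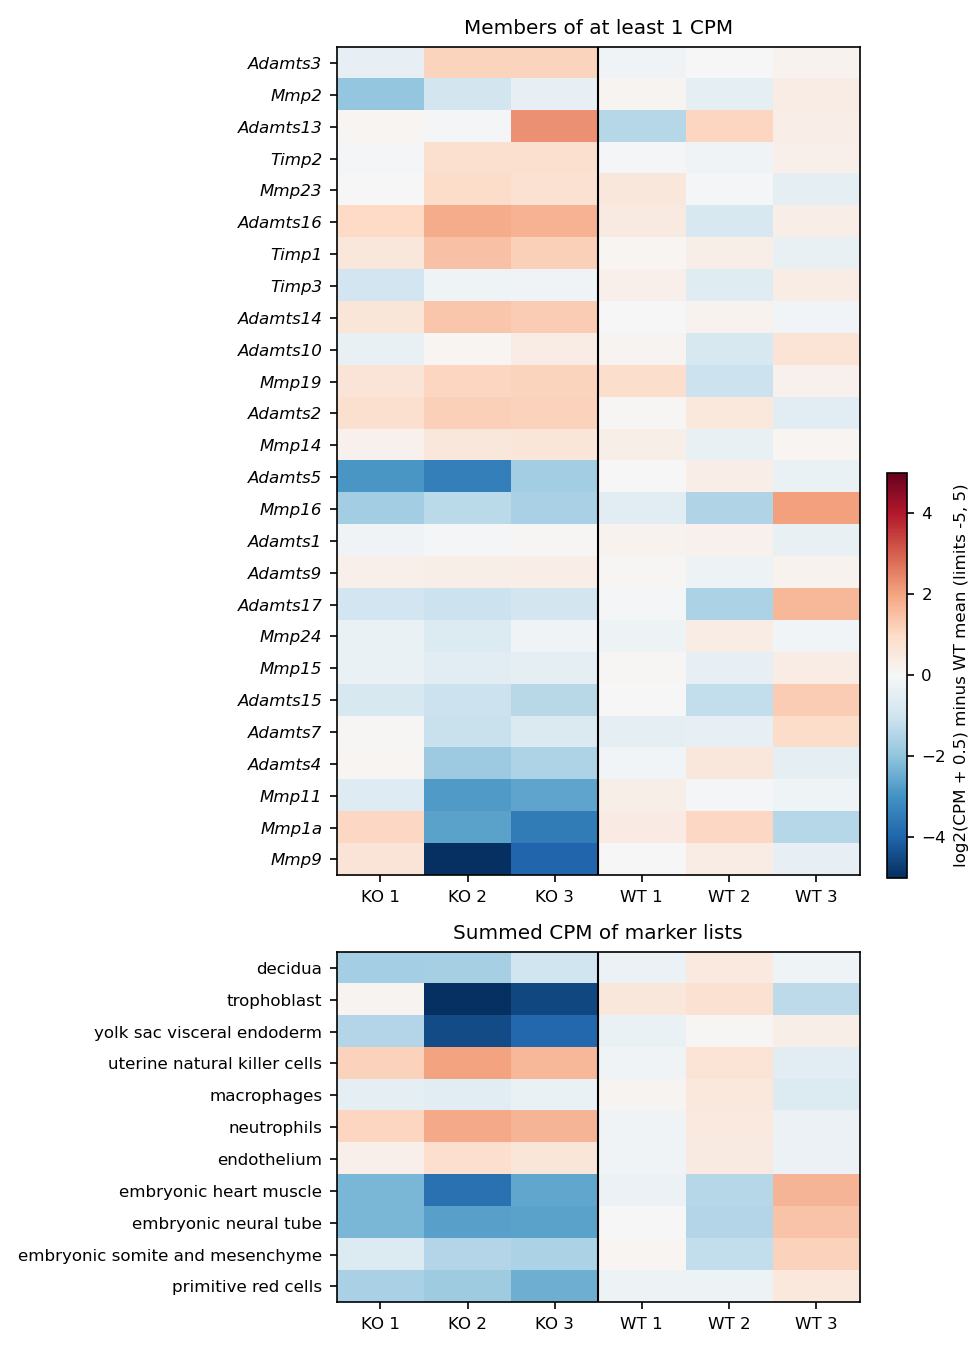
Log2(CPM + 0.5) minus the mean of the 3 WT libraries for the 26 members of at least 1 CPM (top) and for the summed CPM of marker lists (bottom), with Lphn2 knockout (KO) columns left of WT. Members run from those highest in KO replicates 2 and 3 relative to replicate 1 to those lowest there. Mmp9 and Mmp1a at the bottom are low in the same KO libraries as the trophoblast and yolk sac endoderm markers.

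Other genes of extracellular proteolysis were read in 5 lists. Over all genes tested, 46.6% had a positive log2 fold change and the median was -0.04. ADAMTS-like proteins, which share the ADAMTS repeats but have no protease domain, had 5 of 7 genes tested, with 0 past the threshold, 5 of 5 positive and a median log2 fold change of 1.30. Thsd4, a promoter of fibrillin microfibrils, was read at 103, 96.0 and 105 CPM in knockout and 44.4, 31.1 and 48.3 CPM in WT libraries (log2 fold change 1.30 ± 0.20, adjusted p = 0.146). Adamtsl4 and Adamtsl5 had log2 fold changes of 1.49 and 1.37 (adjusted p = 0.191 and 0.257). ADAM proteases, the membrane-bound relatives, had 10 of 12 tested with 0 past the threshold, 7 positive and a median of 0.44. Adam12 averaged 87.4 ± 24.0 CPM in knockout and 34.9 ± 3.06 CPM in WT libraries, with an adjusted p of 0.165. Adam9 averaged 30.2 ± 3.44 CPM in knockout and 17.4 ± 2.56 CPM in WT libraries, and Adam15 averaged 1015 ± 183 CPM in knockout and 530 ± 161 CPM in WT libraries (adjusted p = 0.176 and 0.194).

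Plasminogen activators, proprotein convertases and their inhibitors, of which all 11 were tested, had 0 past the threshold, 4 positive, 7 negative and a median of -0.20. Plg, plasminogen, averaged 0.124 ± 0.0961 CPM in knockout and 2.73 ± 2.61 CPM in WT libraries, and Serpinb2, an inhibitor of plasminogen activators, averaged 0.0475 ± 0.0823 CPM in knockout and 0.981 ± 0.319 CPM in WT libraries (adjusted p = 0.170 and 0.194). Pcsk5, a convertase, averaged 28.2 ± 7.55 CPM in knockout and 16.3 ± 3.64 CPM in WT libraries (adjusted p = 0.257). Cofactors and clearance receptors had 11 of 13 tested, 0 past the threshold, 6 positive, 5 negative and a median of 0.25. Thbs2, thrombospondin-2, averaged 15.6 ± 7.71 CPM in knockout and 4.005 ± 1.85 CPM in WT libraries, and A2m, the broad protease trap alpha-2-macroglobulin, averaged 1717 ± 450.1 CPM in knockout and 906 ± 274 CPM in WT libraries (adjusted p = 0.183 and 0.225). Spock1, a matrix proteoglycan, averaged 0.690 ± 0.549 CPM in knockout and 6.38 ± 9.06 CPM in WT libraries (adjusted p = 0.337). Aggregating proteoglycans, link proteins and hyaluronan synthases had 7 of 11 tested, 0 past the threshold, 2 positive, 5 negative and a median of -0.19. Hapln3, a link protein, averaged 1.57 ± 1.16 CPM in knockout and 10.7 ± 6.17 CPM in WT libraries (adjusted p = 0.176), while Has1 and Hapln4 had log2 fold changes of 1.34 and -1.53 (adjusted p = 0.479 and 0.572).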

How the data were processed

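RNA from 6 samples was turned into 3' end tag libraries with the Lexogen QuantSeq kit from 500 ng of total RNA, per the labels' protocols. The authors deposited whole-number counts per gene symbol without normalization, 1 table per sample. Bowtie2, edgeR and genome build mm10 are named in the submitters' processing notes; the sources used here do not give versions, annotation, counter or strand setting. Counts of 5 of the 26 members of at least 1 CPM share a divisor above 1, so their counting error is understated.

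Genes were kept with filterByExpr (minimum count 10), scaled by TMM and tested with the quasi-likelihood test of edgeR 4.0.16 in R 4.3.3, without covariates, on all genes, with Benjamini-Hochberg adjustment and a threshold of 0.05. The SE is the log2 fold change divided by the square root of F. CPM are counts over the effective library size. DESeq2 1.42.0, limma 3.58.1 (voom), other scalings and filters, a replicate block and leaving out each library were alternatives. The test scripts were run on simulated data, where a pass was required only of edgeR at a fixed level of replicate noise. That check does not vouch for the other tools or for the noise of these data. Positions come from GENCODE M21 (mm10) and promoters from RefSeq (GRCm38.p6). Transcripts were aligned with Biopython 1.88, and figures drawn with matplotlib 3.10.9.

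The members, lists and naming rule were chosen with earlier results of these data known. All members of at least 1 CPM are named, with values per library for TIMPs, members with unadjusted p under 0.05 or groups that do not overlap, and the 3 members with the highest mean in each family. Of each list of other genes, up to 3 with the smallest p are named. Values per library of other genes were added after they were seen.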

Additional observations from a re-analysis of the deposited data

How the results depend on the processing

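Each of the 25 tested members was refitted under up to 17 alternatives, 16 of them chosen with the design and knockout replicate 1 alone against WT added after seeing the data. Of the 420 refits, 399 kept direction and side of the threshold, 8 passed it anew and 13 turned direction, and 16 members kept their direction throughout. The directions that turned were those of Adamts1 without WT replicate 1 (0.0073) or 2 (0.035), of Adamts10 without knockout replicate 1 (0.14), without WT replicate 3 (0.34) or with the replicate block (0.032), and of Adamts13 without knockout replicate 3 (-0.43). With 1 library left out, Adamts1 ranged from -0.25 to 0.035, Adamts10 from -0.36 to 0.34 and Adamts13 from -0.43 to 1.96. With knockout replicate 1 alone against WT, Adamts3 (-0.41), Adamts4 (0.077), Adamts13 (-0.26), Mmp1a (0.78), Mmp9 (0.65), Mmp23 (-0.038) and Timp2 (-0.10) turned. The cause was not tested. Members past the threshold, 0 higher and 0 lower, became 3 higher and 1 lower with DESeq2, and 0 to 2 higher and 0 to 2 lower with 1 library left out, the highest of both without knockout replicate 1. Over all genes, 0 higher and 7 lower became 470 and 387 with DESeq2, 0 lower with the replicate block, with 1 symbol per identical set or with knockout replicate 1 alone, and 0 to 252 higher and 0 to 466 lower with 1 library left out. Same replicate numbers were not taken as pairs. Deviations of same-numbered samples correlated at 0.127, -0.0238 and 0.0706, and those of differently numbered samples at -0.107 to 0.0673. Under the block 0 members passed, as in the main fit, so that count does not bear on pairing. The mean ratio of TIMP to protease tags, 0.506 in knockout and 0.359 in WT, was 0.362 in knockout and 0.131 in WT without the member with the most tags in each family, and 0.455 to 0.574 in knockout and 0.303 to 0.401 in WT with 1 library left out. Depth limits the members below 1 CPM, which held at most 82 counts in a library.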

Other observations

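Of the genes read beside the members, 5 are named here after their values were seen. Pcsk7, a proprotein convertase, was read at 23.8, 29.8 and 32.3 CPM in knockout replicates 1, 2 and 3, against 178, 25.8 and 19.8 CPM in WT replicates 1, 2 and 3, so WT replicate 1 stood apart from the other 5 libraries. S100a8, a calcium-binding protein of neutrophils, was read at 2139, 3840 and 3326 CPM in knockout and 884, 1418 and 797 CPM in WT libraries, while its usual partner S100a9 was read at 2.04, 4.27 and 2.00 CPM in knockout and 5.29, 5.97 and 15.2 CPM in WT libraries. Csf1r, the receptor of macrophage growth factors, was read at 156, 58.3 and 116 CPM in knockout and 291, 442 and 166 CPM in WT libraries. Cd68, a lysosomal protein of macrophages, ran the other way, at 84.9, 119 and 117 CPM in knockout and 60.0, 99.0 and 41.5 CPM in WT libraries. None of these 5 passed the threshold in edgeR (adjusted p of 0.166 to 0.447).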
